A study of Mus musculus with 24 samples.

Results

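The genes of MHC class II antigen presentation were followed in the cortex of 24 mice. They were the 7 of 43346 genes in the deposited count table named H2-Aa, H2-Ab1, H2-Eb1, H2-DMa, H2-DMb1, Cd74 and Ciita, and each was found once. The study compared mice that carried an inducible construct of the WT or of the R47H form of TREM2, a surface receptor by which microglia, the resident macrophages of the brain, sense lipids. RNA was sequenced in bulk, with 1 library for each mouse, and the 4 groups held 6 mice each. R47H_induced mice were TREM2-R47H+/+ and had received tamoxifen, and R47H_control mice were TREM2-R47H+/+ and had received corn oil. WT_induced mice were TREM2-WT+/+ and had received tamoxifen, and WT_control mice were TREM2-WT+/+ and had received corn oil. All 4 groups were Cx3cr1CreER/+ on C57BL/6. Cx3cr1 drives the Cre in microglia and also in other cells that express Cx3cr1, among them border macrophages and many blood monocytes. Mice given tamoxifen in the absence of Cre were not analysed here, and the drug and the induction cannot be told apart, and the sources used here do not say whether each line stems from 1 founder. The series text gives 3 males and 3 females to each group, without naming the sex of a sample, and ages are not given. In bulk tissue, fewer cells of a type and less RNA per cell cannot be told apart.

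MHC class II molecules carry peptides from the endosome to the cell surface, where helper T cells read them. H2-Aa and H2-Ab1 encode the alpha and beta chains of I-A, the class II molecule that C57BL/6 mice display. H2-Eb1 encodes the beta chain of I-E, whose alpha chain gene is defective in C57BL/6. Cd74, the invariant chain, guides new class II dimers to the endosome and fills their groove. H2-DMa and H2-DMb1 encode the chains of H2-DM, which exchanges the invariant chain remnant for peptide. Ciita is the transactivator that binds the factors assembled on class II promoters. In healthy brain tissue, class II is carried mainly by macrophages and dendritic cells at the borders of the brain, and microglia express little of it until they are activated by signals such as interferon gamma.

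The promoter element that these genes share is the row of W/S, X and Y boxes on which RFX, CREB and NF-Y assemble and to which Ciita is recruited. A pair of letter runs was searched on both strands of the RefSeq promoter windows (GRCm38.p6, 250 bases before to 50 bases after the start). The pair was GNAAC, as found within X boxes, followed after 24 to 28 bases by GATTGG, the inverted CCAAT of Y boxes; the 2 runs cannot overlap, and the pair was chosen after these sequences had been seen. It was present in 97 of 32851 windows, or 0.295%, while GATTGG alone was present in 16.1% and GNAAC alone in 84.8%. Of 4 members with a window, 3 held the pair (H2-Aa, H2-Eb1 and H2-DMb1), and of 4 relatives with a window, 3 held it (H2-Oa, H2-Ob and H2-Eb2). H2-DMa did not hold it, but its RefSeq starts lie upstream of its start in the deposited table. In H2-DMb1 the X letters were GTAAC, 94 bases before the start, with 27 bases between them and the Y letters. The stretches of H2-Aa and H2-Eb1 are shown because these were the members that differed between lines in control mice once 1 library was left out, and that of H2-Ob because this relative holds the same letters and did not pass that test. Capitals mark the letters searched, and each stretch reads towards the start of its gene.
H2-Aa, chr17:34287857-34287914, minus strand: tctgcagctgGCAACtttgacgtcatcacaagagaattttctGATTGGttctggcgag
H2-Eb1, chr17:34305766-34305822, plus strand: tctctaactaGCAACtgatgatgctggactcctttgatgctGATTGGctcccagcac
H2-Ob, chr17:34238808-34238862, plus strand: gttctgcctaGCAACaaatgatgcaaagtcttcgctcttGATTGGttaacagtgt
In H2-Aa the X letters began 81 bases and the Y letters 49 bases before the start. In H2-Eb1 they began 91 and 60 bases before it, and in H2-Ob 87 and 58 bases before it. A match describes the letters only and does not show that a factor bound there.

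Total counts ran from 27933505 to 56082520 per library, and 19678 genes passed the filter on low counts and were tested; all 7 members were among them. Levels are CPM, counts relative to the library total after TMM scaling. Trem2 itself averaged 6.62 ± 0.534 CPM in R47H_induced, 7.89 ± 0.974 CPM in R47H_control, 6.61 ± 1.43 CPM in WT_induced and 6.40 ± 0.367 CPM in WT_control (SD, n = 6 each). The sources used here do not say whether the construct carries a mouse or a human sequence, so this level checks no label. Lars2, AY036118 and Yam1 are genes with rRNA-like reads, which can mark library quality, and together they took from 11.5 to 24.4% of the counts of a library (the rRNA-like share). In all 7 members the library of WT_induced replicate 6 lay above the other 23. Most results of the members that use it are given with and without it. Some values of other genes are given over 24 libraries only.

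Outside that library, class II transcripts were scarce in the cortex. The 7 members together summed to between 13.3 and 31.0 CPM in the other 23 libraries, with a median of 19.6 CPM. Per kilobase of the deposited gene length, the medians over these 23 libraries were 4.31 CPM for H2-DMa, 3.38 for Cd74, 1.63 for H2-Eb1, 1.07 for H2-Aa, 0.858 for H2-Ab1, 0.478 for H2-DMb1 and 0.372 for Ciita. In each of the 23 libraries Cd74 stood above H2-Eb1 per kilobase (ratio 1.53 to 4.005), and H2-Eb1 stood above H2-Aa (ratio 1.04 to 2.22). The other neighbours in this order changed places between libraries. H2-DMa over Cd74 ran from 0.706 to 2.75, H2-Ab1 over H2-Aa from 0.559 to 1.30, H2-Ab1 over H2-DMb1 from 0.657 to 4.82, and H2-DMb1 over Ciita from 0.745 to 1.87. H2-DMa was the least variable member. Its level ran from 6.44 to 7.89 CPM in R47H_induced, from 5.66 to 7.76 CPM in R47H_control, from 6.80 to 8.24 CPM in WT_induced without replicate 6, and from 6.69 to 7.56 CPM in WT_control. H2-DMb1 rested on 16 to 38 counts per library in these 23, so its level is the least precise.

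The members lie on 3 chromosomes in mm10, as the deposited table places them. H2-DMa (34135182 to 34139101), H2-DMb1 (34153072 to 34160230), H2-Ab1 (34263209 to 34269418), H2-Aa (34282744 to 34287827, minus strand) and H2-Eb1 (34305877 to 34316199) follow each other on chromosome 17. Ciita lies on chromosome 16 (10488178 to 10527564) and Cd74 on chromosome 18 (60803848 to 60812646). The library kit does not mark strand, so reads of overlapping genes cannot be told apart: 10.4% of the exon bases of H2-DMa are overlapped by Brd2, 3.5% of those of Ciita by Dexi and 0.7% of those of Cd74 by Mir5107. H2-DMb1 shares 22.65% of its 50-base windows with its copy H2-DMb2, so the split of reads between these 2 genes is uncertain.

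**Figure D1:**
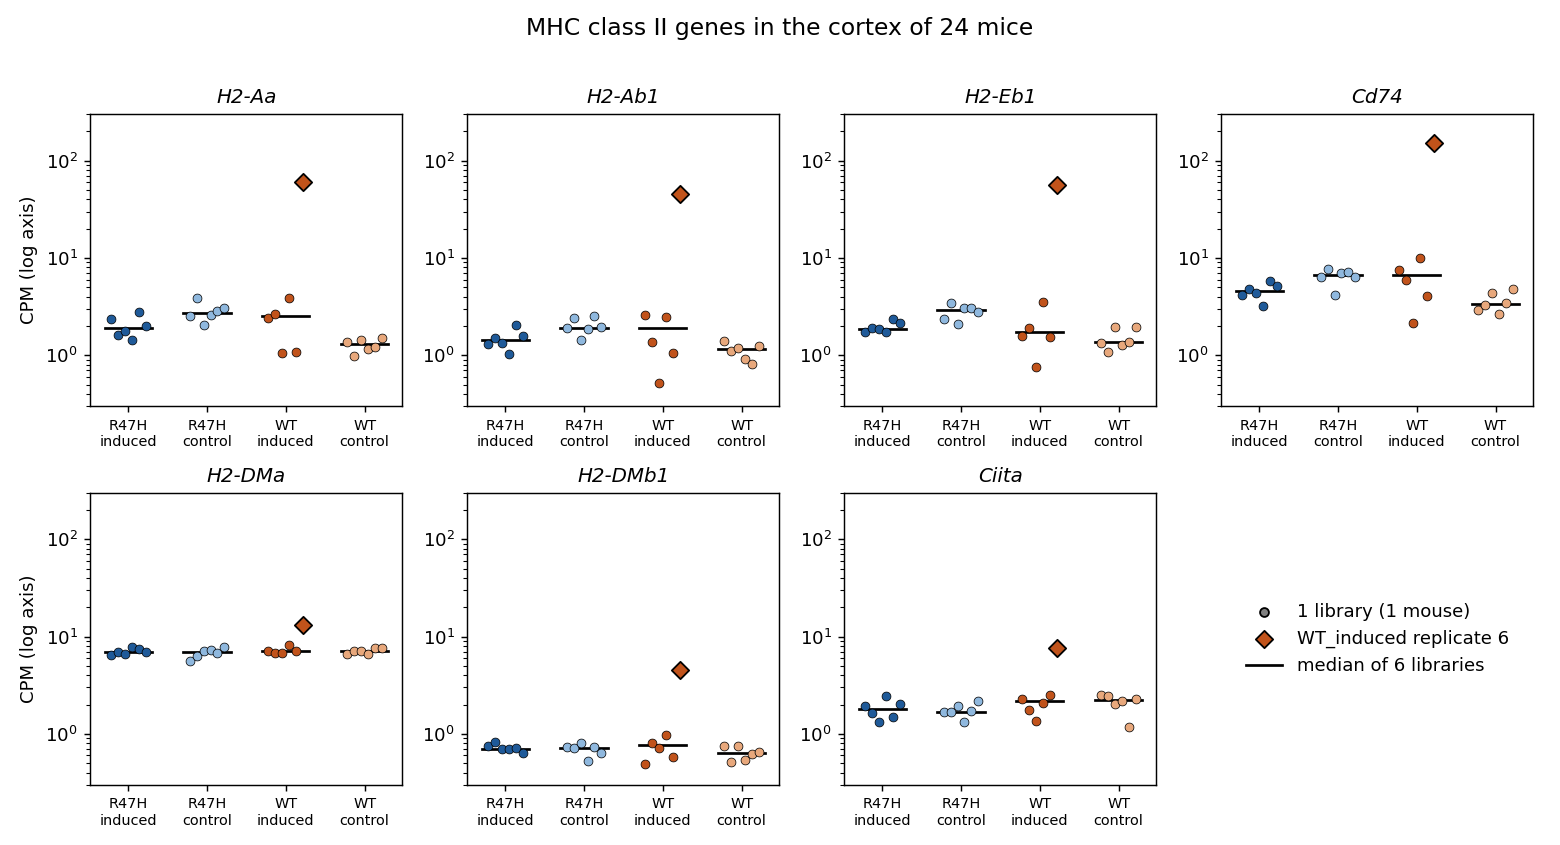
CPM of the 7 class II genes (log axis) in each library, by group, with R47H_induced, R47H_control, WT_induced and WT_control from left to right. Circles are single libraries, the diamond is WT_induced replicate 6 and bars are medians of 6 libraries. The diamond lies above every other library in all 7 panels, at 151.5 CPM for Cd74 and 60.6 CPM for H2-Aa.

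In WT_induced replicate 6 the classical class II chains and the invariant chain stood about as far above the other libraries as each other, and the remaining members stood less far above them. Cd74 had 151.5 CPM (6647 counts) there, 31.8 times the median of 4.77 CPM in the other 23 libraries. H2-Ab1 had 45.3 CPM (1986 counts), 32.2 times its median of 1.40 CPM. H2-Aa had 60.6 CPM (2657 counts), 30.1 times its median of 2.01 CPM. H2-Eb1 had 56.2 CPM (2464 counts), 29.1 times its median of 1.93 CPM. The next highest library had 9.90 CPM of Cd74, so no other mouse came near. Among the helpers of peptide loading, H2-DMb1 had 4.54 CPM (199 counts), 6.39 times its median, and H2-DMa had 13.2 CPM (579 counts), 1.87 times its median. Ciita had 7.61 CPM (334 counts), 3.89 times its median. The rRNA-like share of this library, 22.95%, was the highest of its group and second among the 24, and its part in these levels was not tested.

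The proportions between members therefore differed in that library. Per kilobase, Cd74 over H2-Aa was 3.33 in WT_induced replicate 6, against 2.30 to 4.92 in the other 23 libraries. H2-Ab1 over H2-Aa was 0.856, against 0.559 to 1.30, and H2-Eb1 over H2-Aa was 1.47, against 1.04 to 2.22. These 4 genes kept proportions that other libraries also showed. H2-DMa over H2-Aa was 0.249, against 1.86 to 8.25, and Ciita over H2-Aa was 0.0448, against 0.154 to 0.892. H2-DMa over H2-DMb1 was 2.63, against 7.07 to 13.3. All 3 of these last ratios lay outside the range of the other libraries.

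The relatives of the members followed in part. H2-Oa and H2-Ob, the chains of H2-O, a modulator of H2-DM found mainly in B cells and some dendritic cells, had 114 and 86 counts in WT_induced replicate 6, against at most 23 and 30 counts in any other library. H2-DMb2 had 39 counts, against at most 35, and H2-Eb2 had 9, against at most 2. Of the exon bases of H2-Oa, 22.8% are overlapped by BC051537. The pseudogene H2-Ea-ps had 2 counts over all 24 libraries. H2-Eb2 and H2-Ea-ps did not pass the filter and were not tested.

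Other genes of antigen presentation and interferon signalling were also highest in this library. Of the 5 class I genes that lie in or beside the class II region, WT_induced replicate 6 was the highest library for 5, with Psmb9 at 10.2 times, Psmb8 at 9.90 times and Tap1 at 9.58 times the median of the other 23; they encode immunoproteasome subunits and a chain of the peptide transporter. Of 9 genes of endosomal antigen processing it was the highest for 7, with Ifi30, the thiol reductase that unfolds antigens, at 3.40 times and Ctss, the protease that trims the invariant chain, at 2.89 times. Of 9 genes of the interferon gamma axis it was the highest for 7, with Irf1, a transcription factor induced by interferon, at 4.02 times. Ifng, the cytokine itself, had 6 counts in WT_induced replicate 6 and 0 in each of the other 23 libraries. Of 6 co-stimulatory genes it was the highest for 5, with Cd274 at 5.41 times. By contrast it was the highest for 1 of the 10 factors that bind or serve class II promoters, and 9 of these lay between 0.867 and 1.12 times their median. The 1 was Kat2b, at 1.97 times its median and 51.8 CPM, where WT_control replicate 4 had 50.5 CPM. Kat2b differed between lines, as given below, and the median of the other 23 libraries covers both lines. Over all 19678 tested genes this library was the highest for 9.06%, and the median ratio was 0.998.

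Markers of blood leukocytes moved with the members in this library. WT_induced replicate 6 was the highest library for 13 of 14 T cell markers, whose summed level was 39.6 CPM, against 13.9 to 19.1 CPM in the other 23. The most abundant of them, Cd4 and Trbc2, stood at 1.28 and 1.23 times their medians. Cd3d had 56 counts and Cd8b1 had 39, against at most 2 counts of each in any other library, and no T cell marker was at 0, against 1 to 6 of them in each other library. This library was the highest for 4 of 8 monocyte and neutrophil markers. Ly6c2 had 115 counts, against at most 5, and Ccr2 had 379, against at most 23, while the neutrophil genes S100a8 and S100a9 stood at 0.37 and 0.33 times their medians and Ly6g had 0 counts. Their summed level was 40.7 CPM, against 20.5 to 25.9 CPM. It was the highest for 4 of 8 dendritic cell markers. Ccr7 had 71 counts, against at most 7, and Itgax had 130, against at most 14, while Flt3, Zbtb46 and Cd209a stood at 1.19, 1.002 and 0.603 times their medians. Their sum was 25.4 CPM, against 16.5 to 20.9 CPM. It was also the highest for 4 of 8 B cell markers. Igkc had 379 counts, against at most 78, but Pax5 had 0, and the sum was 34.8 CPM, against 8.85 to 23.7 CPM. This library was the highest for 6 of 10 microglia markers and the lowest for 1, Fcrls, at 6.20 CPM. The microglia markers summed to 374.1 CPM, against 260.4 to 312.5 CPM. The 8 border macrophage markers summed to 18.4 CPM, below the 22.1 to 31.6 CPM of the other 23. WT_induced replicate 6 was the lowest library for 5 of them, among them Lyve1 with 12 counts. It was the highest for 1, Ms4a7, with 27 counts against at most 20. The part of these cell types in the class II level was not tested.

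**Figure D2:**
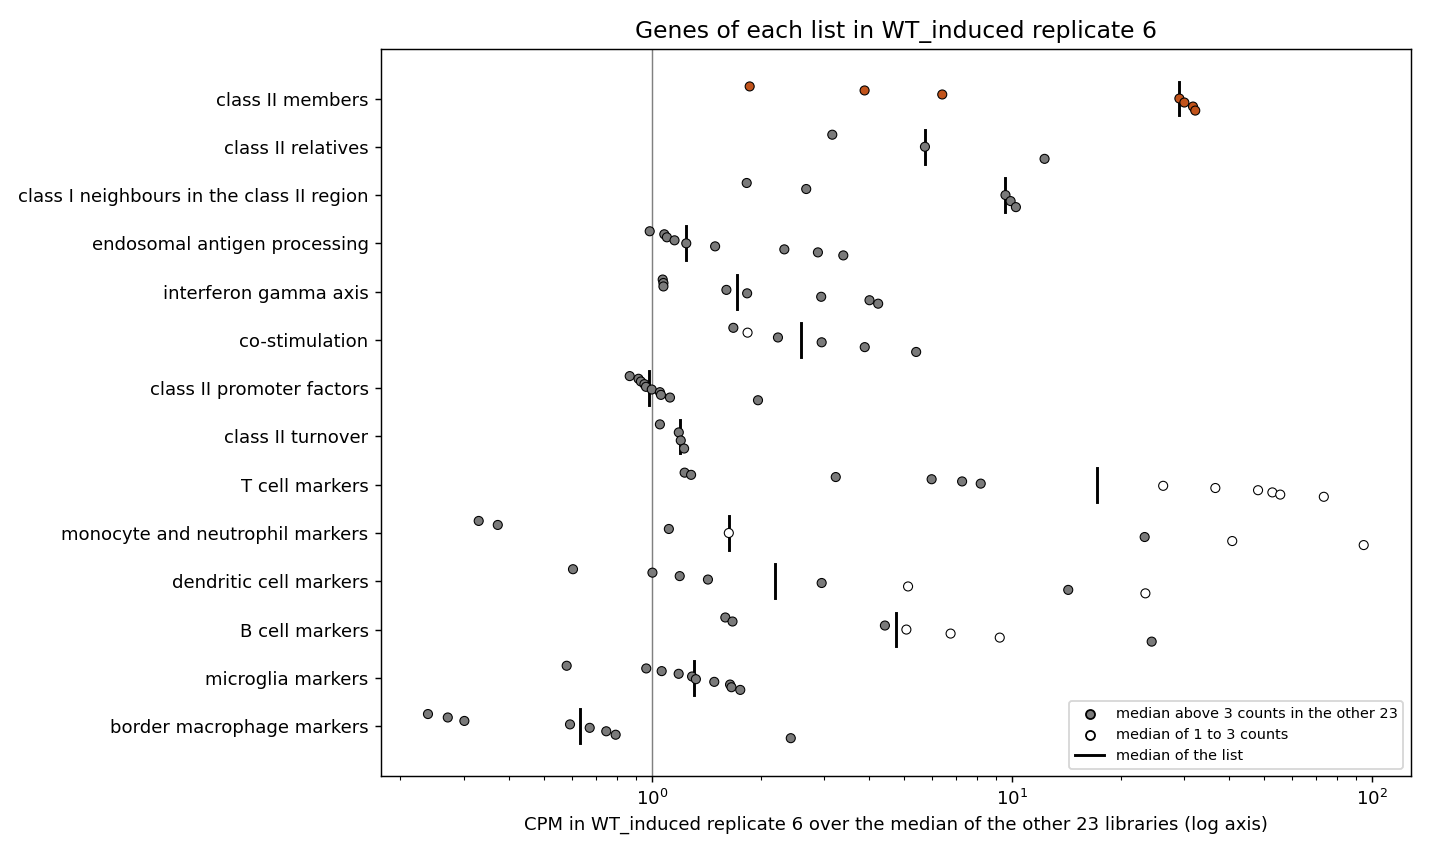
CPM in WT_induced replicate 6 over the median of the other 23 libraries (log axis), 1 point per gene, by list; open points have a median of 1 to 3 counts in the other 23 and black bars are list medians. Genes with a median of 0 have no ratio, and Pax5, at 0 in this library, has no point on a log axis. H2-Aa, H2-Ab1, H2-Eb1 and Cd74 lie between 29.1 and 32.2 times, and most promoter factors lie near 1.

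In mice given corn oil, the medians of the I-A chains, the I-E beta chain and the invariant chain were higher in R47H_control than in WT_control cortex, but none passed in the fit over 24 libraries. H2-DM and Ciita overlapped between the groups. H2-Aa had 2.05, 2.72 and 3.85 CPM (lowest, median and highest library) in R47H_control, against 0.979, 1.30 and 1.52 CPM in WT_control. H2-Ab1 had 1.43, 1.92 and 2.51 CPM in R47H_control, against 0.807, 1.15 and 1.40 CPM in WT_control. H2-Eb1 had 2.10, 2.92 and 3.41 CPM in R47H_control, against 1.09, 1.36 and 1.96 CPM in WT_control. For these 3 genes every R47H_control library lay above every WT_control library. Such a separation, in either direction, was found for 3.18% of the tested genes, and for 1.66% with R47H_control above. Cd74 had 4.17, 6.72 and 7.61 CPM in R47H_control, against 2.67, 3.38 and 4.80 CPM in WT_control, and its groups overlapped through 1 low R47H_control library.

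The test of this line difference depended on which libraries shared the estimate of spread. In the edgeR quasi-likelihood fit over all 24 libraries, 0 of 7 members passed an adjusted p of 0.05, while 5.74% of all tested genes did; none of the 7 had an unadjusted p below 0.05, against 20.5% of tested genes, limma-voom also called 0, and DESeq2 called none of the 3 to which it gave an adjusted p (H2-DMa, H2-DMb1 and Ciita). The log2 difference was 1.12 (SE 0.88, adjusted p = 0.517) for H2-Aa, 0.85 (SE 0.89, adjusted p = 0.648) for H2-Ab1, 0.89 (SE 0.87, adjusted p = 0.617) for H2-Eb1 and 0.85 (SE 0.83, adjusted p = 0.618) for Cd74. Without WT_induced replicate 6, which belongs to neither group, the differences were 1.13, 0.85, 0.89 and 0.85, and their SEs fell within 0.23 to 0.27. H2-Aa (adjusted p = 0.00977) and H2-Eb1 (adjusted p = 0.0199) then passed, while H2-Ab1 (adjusted p = 0.0562) and Cd74 (adjusted p = 0.0643) did not; 3.02% of genes were called higher in that fit. An unadjusted p below 0.05 was found there for 4 of the 7, against 21.3% of tested genes. In an edgeR fit on the 12 control libraries alone, in which 2.74% of 18939 genes were called higher, all 4 rose. The adjusted p there was 0.000319 for H2-Aa, 0.00394 for H2-Ab1, 0.00213 for H2-Eb1 and 0.00812 for Cd74. Exact permutation tests of mean log2 CPM, two-sided, gave p = 0.00216 for H2-Aa, H2-Ab1 and H2-Eb1, the smallest that 6 against 6 libraries allow, and p = 0.00649 for Cd74.

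H2-DM and Ciita passed no test in this comparison. The log2 difference was -0.06 (SE 0.12) for H2-DMa, 0.12 (SE 0.43) for H2-DMb1 and -0.26 (SE 0.32) for Ciita in the 24-library edgeR fit, with adjusted p = 0.830, 0.919 and 0.705. Exact permutation p-values were 0.390, 0.383 and 0.242. The relatives H2-Oa (0.50, SE 0.75), H2-Ob (-0.32, SE 0.46) and H2-DMb2 (-0.48, SE 0.36) did not pass either. Over the 7 members the median log2 difference was 0.85 and 5 were positive, against a median of -0.0012 and 9749 positive among the 19678 tested genes.

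**Figure D3:**
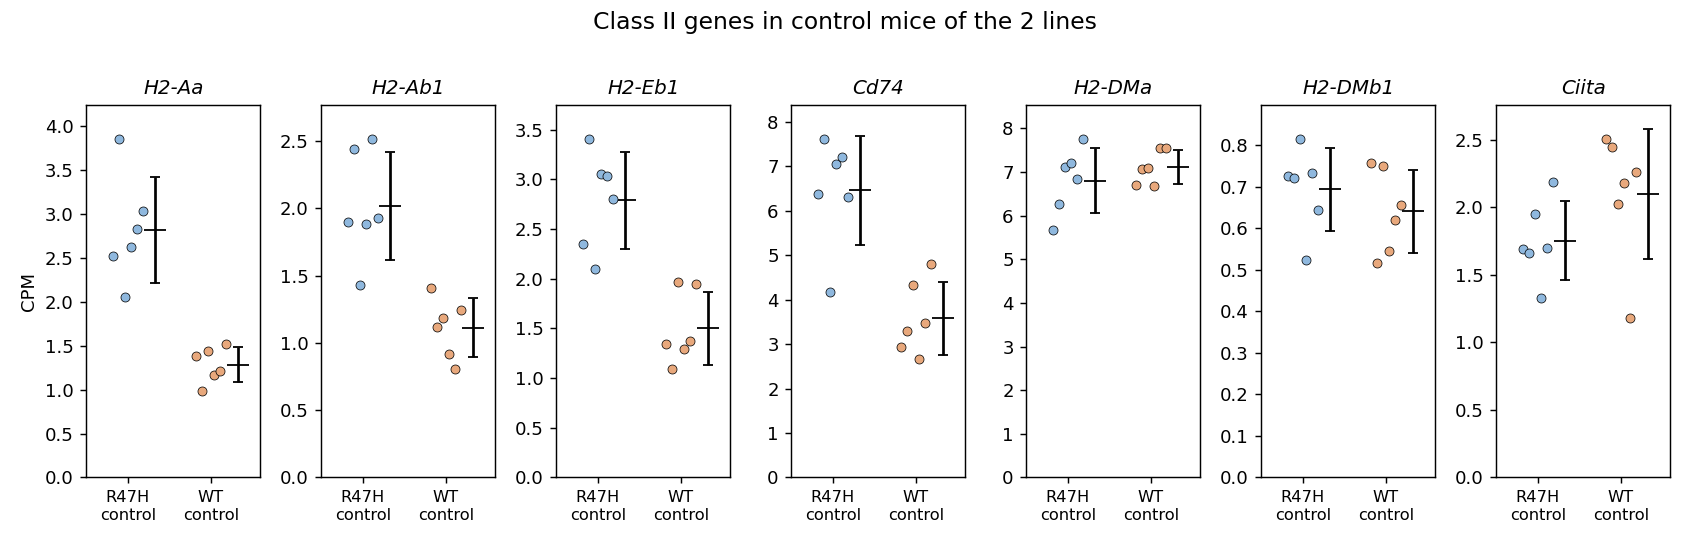
CPM (linear axes from 0) of the 7 class II genes in R47H_control (left) and WT_control (right) libraries, with mean ± SD of 6 libraries beside the points. The groups do not overlap for H2-Aa, H2-Ab1 and H2-Eb1, while those of H2-DMa, H2-DMb1 and Ciita do.

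The rRNA-like share differed between these same groups, while the summed markers of meninges and choroid plexus overlapped. The rRNA-like share averaged 20.3% in R47H_control (17.1 to 24.4%) and 15.9% in WT_control (11.5 to 20.1%), a difference of 4.43 points (exact permutation p = 0.0303). With this share as a covariate in the fit without WT_induced replicate 6, the log2 difference was 1.02 for H2-Aa (adjusted p = 0.130), 0.67 for H2-Ab1, 0.87 for H2-Eb1 (adjusted p = 0.153) and 0.71 for Cd74, and none passed. With the same covariate over all 24 libraries the differences turned to -0.28, -0.61, -0.46 and -0.50. Meningeal fibroblast markers summed to between 151.4 and 219.0 CPM (median 175.3) in R47H_control, against 142.4 to 187.4 CPM (median 153.8) in WT_control, and 11 of the 12 were positive. Of these markers 0 were called over 24 libraries, against 5.74% of tested genes, and 1 without WT_induced replicate 6, against 6.36%. With their sum as a covariate and without WT_induced replicate 6, H2-Aa stayed called at 0.77 (SE 0.20, edgeR adjusted p = 0.0308), and H2-Eb1 did not pass at 0.63 (SE 0.21, adjusted p = 0.105). Choroid plexus markers, all 6 positive, summed to between 32.1 and 546.8 CPM in R47H_control, against 15.7 to 380.7 CPM in WT_control. None of these 6 markers was called, with or without WT_induced replicate 6. With them as a covariate and without that library, H2-Aa (1.02, adjusted p = 0.0143) and H2-Eb1 (0.84, adjusted p = 0.0345) stayed called.

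The summed markers of cells that can carry class II, and of other leukocytes, overlapped between the control groups. For microglia and for T cells the overlap came from 1 library each. The 10 microglia markers summed to between 297.2 and 312.5 CPM (median 304.0) in R47H_control, against 277.6 to 302.6 CPM (median 284.9) in WT_control. Only WT_control replicate 2 reached the R47H_control range, and the next WT_control library had 293.2 CPM. Over 24 libraries 8 of 10 were positive and 0 were called. Without WT_induced replicate 6 Tmem119 (log2 0.22, edgeR adjusted p = 0.0407) and P2ry12 (log2 0.20, adjusted p = 0.0398) rose. In that fit 3.02% of tested genes were called higher. The 8 border macrophage markers summed to between 26.0 and 31.6 CPM in R47H_control, against 26.4 to 29.7 CPM in WT_control. Over 24 libraries 5 of 8 were positive and 0 were called. Without WT_induced replicate 6 Pf4 rose (log2 0.79, edgeR adjusted p = 0.0483), against the same 3.02% of tested genes called higher. Dendritic cell markers summed to between 17.4 and 20.9 CPM in R47H_control, against 16.5 to 20.6 CPM in WT_control. B cell markers summed to between 10.3 and 17.2 CPM in R47H_control, against 10.5 to 23.7 CPM in WT_control, and up to 3 of the 8 were at 0 in an R47H_control library, against up to 2 in a WT_control library. T cell markers summed to between 13.9 and 17.5 CPM in R47H_control, against 16.3 to 19.1 CPM in WT_control, with 1 to 5 of the 14 at 0 in R47H_control libraries and 1 to 4 in WT_control libraries. Only R47H_control replicate 1 reached the WT_control range, and the next R47H_control library had 15.7 CPM. Of the 5 T cell markers tested, 1 (Cd4, given below) was called lower over 24 libraries, against 3.04% of tested genes. Monocyte and neutrophil markers summed to between 20.5 and 25.1 CPM in R47H_control, against 21.6 to 23.7 CPM in WT_control. The part of these cells in the line difference was not tested.

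In mice given tamoxifen, the comparison of lines turned on WT_induced replicate 6. Cd74 had 3.17, 4.55 and 5.82 CPM (lowest, median and highest) in R47H_induced, against 2.13, 6.75 and 151.5 CPM in WT_induced. H2-Aa had 1.43, 1.89 and 2.79 CPM in R47H_induced, against 1.05, 2.52 and 60.6 CPM in WT_induced. For both genes the R47H_induced libraries lay inside the range of the WT_induced libraries, and this held without replicate 6 as well. Cd74 was the 1 member of 7 that passed, at a log2 difference of -2.74 (SE 0.78, edgeR adjusted p = 0.0428), where 5.8% of tested genes passed and 3.22% passed as lower. H2-Aa (-2.60, adjusted p = 0.0582), H2-Ab1 (-2.61, adjusted p = 0.0622) and H2-Eb1 (-2.49, adjusted p = 0.0723) did not. At an unadjusted p below 0.05 stood 6 of the 7, against 20.1% of tested genes. Without WT_induced replicate 6, 0 of 7 passed, against 4.86% of all genes, and 0 of 7 had an unadjusted p below 0.05, against 18.8%. limma-voom over 24 libraries called 0 members, and DESeq2 gave H2-Aa, H2-Ab1, H2-Eb1 and Cd74 no adjusted p. In the edgeR fit without WT_induced replicate 6, Cd74 stood at -0.37 (SE 0.27, adjusted p = 0.514), H2-Aa at -0.16 (SE 0.26), H2-Ab1 at -0.11 (SE 0.27) and H2-Eb1 at 0.07 (SE 0.24). Exact permutation p-values of the members ran from 0.258 to 0.732 with that library and from 0.515 to 0.987 without it.

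Tamoxifen against corn oil in WT mice gave positive log2 values for all 7 members, and none passed. H2-Aa had 1.05, 2.52 and 60.6 CPM in WT_induced, against 0.979, 1.30 and 1.52 CPM in WT_control. H2-Ab1 had 0.514, 1.92 and 45.3 CPM in WT_induced, against 0.807, 1.15 and 1.40 CPM in WT_control. H2-Eb1 had 0.758, 1.75 and 56.2 CPM in WT_induced, against 1.09, 1.36 and 1.96 CPM in WT_control. The groups overlapped for each of these genes. For H2-Aa, WT_induced replicates 3 and 5 lay within the range of the WT_control libraries, and replicates 1, 2, 4 and 6 lay above all of them. The log2 difference was 3.22 (SE 0.83) for H2-Aa, 3.00 (SE 0.83) for H2-Ab1, 2.87 (SE 0.82) for H2-Eb1 and 3.08 (SE 0.80) for Cd74, with edgeR adjusted p of 0.452 to 0.474. It was 1.09 (SE 0.40) for H2-DMb1, 0.49 (SE 0.31) for Ciita and 0.21 (SE 0.12) for H2-DMa. Of all tested genes 0% passed in edgeR; DESeq2 called 10 genes and limma-voom 0. At an unadjusted p below 0.05 stood 5 of the 7 members and 7.85% of tested genes.

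Without replicate 6 the values in WT mice were smaller. H2-Aa averaged 2.22 ± 1.19 CPM in WT_induced (SD, n = 5) and 1.28 ± 0.202 CPM in WT_control (SD, n = 6), a log2 difference of 0.78 (SE 0.27, edgeR adjusted p = 0.722). Cd74 averaged 5.92 ± 3.01 CPM in WT_induced (SD, n = 5) and 3.58 ± 0.822 CPM in WT_control (SD, n = 6), a log2 difference of 0.72 (SE 0.28, edgeR adjusted p = 0.783). At an unadjusted p below 0.05 stood 2 of the 7, against 5.76% of tested genes. H2-Ab1 stood at 0.50 (SE 0.28), H2-Eb1 at 0.31 (SE 0.24), H2-DMb1 at 0.16, H2-DMa at 0.02 and Ciita at -0.08. The spread among the 5 remaining WT_induced libraries was wider than in any other group for H2-Aa, H2-Ab1, H2-Eb1 and Cd74. Exact permutation p-values were 0.0563 with replicate 6 and 0.113 without it for H2-Aa, and 0.0866 and 0.173 for Cd74.

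Tamoxifen against corn oil in R47H mice gave log2 values of opposite sign for the 4 genes that differed most between lines, and again none passed. H2-Eb1 had 1.74, 1.88 and 2.34 CPM in R47H_induced, against 2.10, 2.92 and 3.41 CPM in R47H_control. H2-Aa had 1.43, 1.89 and 2.79 CPM in R47H_induced, against 2.05, 2.72 and 3.85 CPM in R47H_control. Cd74 had 3.17, 4.55 and 5.82 CPM in R47H_induced, against 4.17, 6.72 and 7.61 CPM in R47H_control. The groups overlapped for each of them. The log2 difference was -0.51 (SE 0.85) for H2-Eb1, -0.50 (SE 0.84) for H2-Aa, -0.50 (SE 0.81) for Cd74 and -0.46 (SE 0.87) for H2-Ab1, each with an edgeR adjusted p of 0.9995. Without WT_induced replicate 6, which belongs to neither group, the SEs were 0.22 to 0.26, the adjusted p ran from 0.887 to 0.947, and 1 of the 7 members had an unadjusted p below 0.05, against 5.53% of tested genes. H2-DMa (0.05), H2-DMb1 (0.04) and Ciita (0.06) stood near 0. Of all tested genes 0% passed in edgeR, DESeq2 called 4 and limma-voom 0, and 5.11% had an unadjusted p below 0.05, against 0 of the 7 members. Tested gene by gene and without adjustment, exact permutation gave p = 0.00866 for H2-Eb1, 0.0217 for Cd74, 0.026 for H2-Aa and 0.0325 for H2-Ab1. The rRNA-like share differed between the same groups by -3.29 points (exact permutation p = 0.0281). With that share as a covariate over 24 libraries, the 4 log2 values turned positive, from 0.43 to 0.62. With the same covariate and without WT_induced replicate 6, all 4 stayed negative.

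The difference of the 2 inductions was negative for the same 4 genes and did not pass. It was -3.73 (SE 1.18, edgeR adjusted p = 0.529) for H2-Aa, -3.58 (SE 1.13, adjusted p = 0.529) for Cd74, -3.46 (SE 1.20, adjusted p = 0.562) for H2-Ab1 and -3.39 (SE 1.18, adjusted p = 0.562) for H2-Eb1. Without WT_induced replicate 6 it was -1.28 (SE 0.37, adjusted p = 0.404) for H2-Aa, -1.22 (SE 0.38, adjusted p = 0.472) for Cd74, -0.96 (SE 0.38, adjusted p = 0.587) for H2-Ab1 and -0.82 (SE 0.33, adjusted p = 0.590) for H2-Eb1. With and without that library, 4 of 7 members had an unadjusted p below 0.05, against 7.94% of tested genes over 24 libraries and 7.29% over 23. No gene was called (0%) in edgeR; DESeq2 called 3 and limma-voom 0. H2-DMb1 stood at -1.05, Ciita at -0.43 and H2-DMa at -0.16, and at -0.12, 0.15 and 0.03 without that library.

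**Figure D4:**
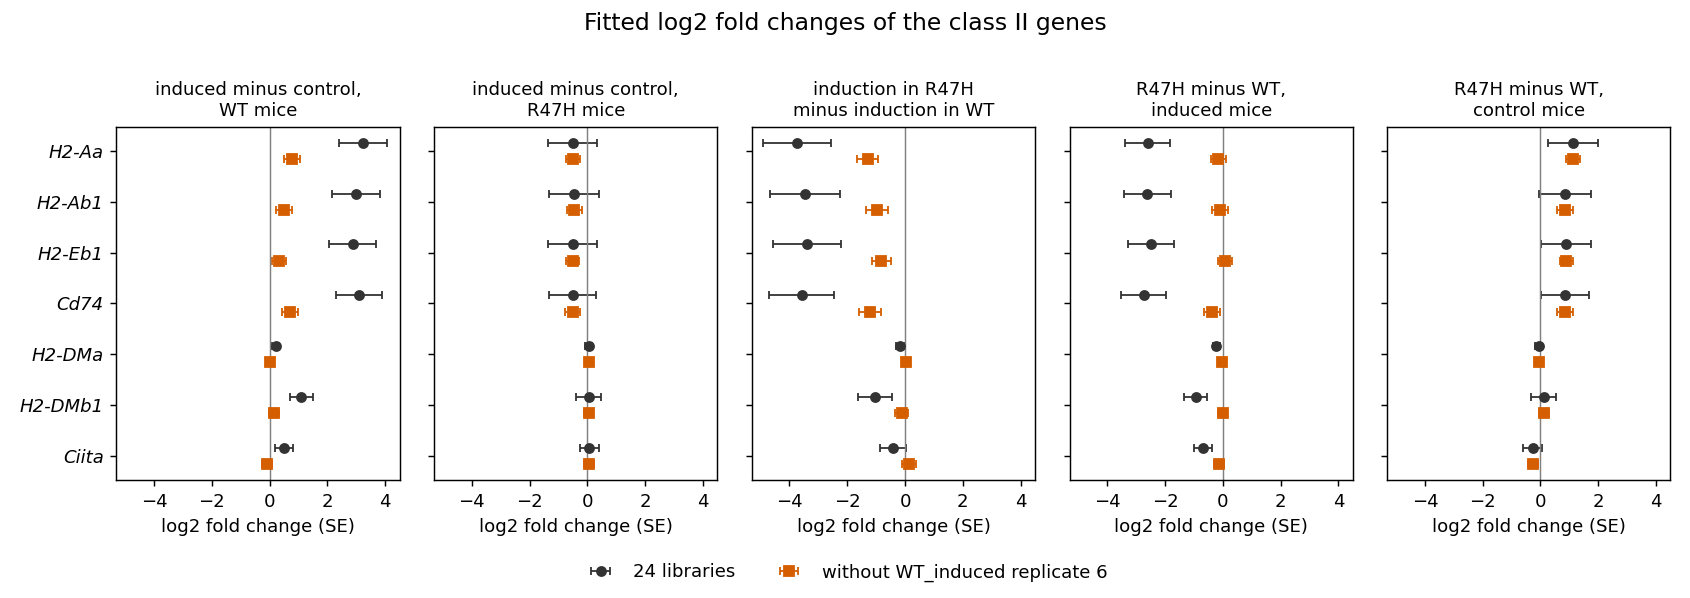
Fitted log2 fold change with its SE for each class II gene (rows) in the 5 comparisons (panels), over 24 libraries (circles) and without WT_induced replicate 6 (squares). The squares of H2-Aa, H2-Ab1, H2-Eb1 and Cd74 lie nearer to 0 than the circles in the WT induction, in the difference of inductions and in induced mice, and lie on them in control mice, where their error bars are shorter.

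Across libraries the I-A and I-E chains and the invariant chain varied together. Outside WT_induced replicate 6 the loading and control genes correlated with them only weakly. Over 24 libraries the 6 pairs among H2-Aa, H2-Ab1, H2-Eb1 and Cd74 had a Pearson r of log2 CPM of 0.96 to 0.98, and without that library of 0.83 to 0.91. The other 15 pairs ran from 0.64 to 0.88 with it and from -0.17 to 0.38 without it. With Cd74, over 23 libraries, r was 0.91 for H2-Ab1 (Spearman rho 0.88), 0.88 for H2-Aa (rho 0.89) and 0.87 for H2-Eb1 (rho 0.85). Each of these had a permutation p of 1e-05 (2e-05 adjusted over 6 relations), the smallest that 100000 permutations give. Leaving out the 2 libraries farthest from the median left r at 0.88, 0.86 and 0.81, and deviations from the group means gave 0.89, 0.84 and 0.89. For H2-DMa, H2-DMb1 and Ciita, r with Cd74 was 0.77, 0.85 and 0.68 over 24 libraries (permutation p = 0.0148, 0.00873 and 0.0274, adjusted p = 0.0178, 0.0131 and 0.0274), with rho of 0.24, 0.25 and -0.06. Over 23 libraries r was 0.09, 0.18 and -0.08 (adjusted permutation p of 0.601 to 0.702), so the relation over 24 rested on 1 library. In these 23 libraries the median was 26 counts for H2-DMb1 and 70 for Ciita, and H2-DMa varied least of the members. A weak r therefore cannot show that these 3 genes vary apart from Cd74. All values of a library share its depth and scaling.

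**Figure D5:**
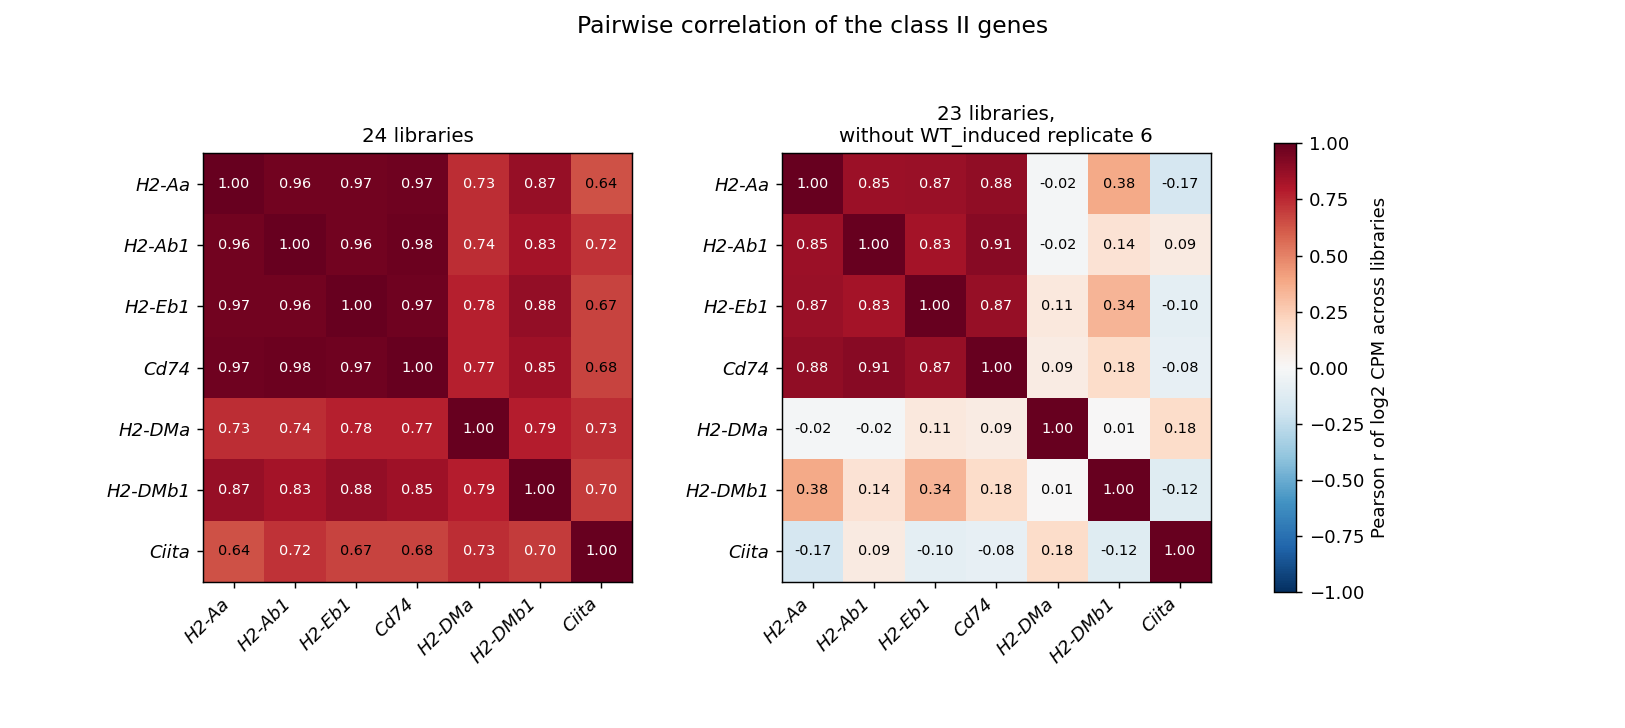
Pearson r of log2 CPM between each pair of class II genes over 24 libraries (left) and over 23 libraries without WT_induced replicate 6 (right). The block of H2-Aa, H2-Ab1, H2-Eb1 and Cd74 stays at 0.83 or above in the right panel, where the other pairs lie between -0.17 and 0.38.

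The genes whose profile was most like the mean of the 7 members also changed when that library was left out. Over 24 libraries they were Lcp1 (r = 0.96), C4b (0.95), Irf8 (0.93), Cxcl16 (0.93), Ptprc (0.92), Fgl2 (0.92), Serping1 (0.92) and Tapbp (0.91). Over 23 libraries they were Cnn3 (0.79), Col18a1 (0.77), Gstt2 (0.73), Itih2 (0.72), Gm8494 (0.70), Dmgdh (0.70), Vim (0.68) and Slc7a11 (0.67). No gene was named on both lists. These values are the highest of all tested genes and are given as a description.

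Along the class II region, no gene other than the members passed between lines in control mice. From H2-DMa to H2-Eb1 the table held 15 genes, of which 13 were tested. In control mice Psmb9 stood at -0.07, Tap1 at -0.14, Psmb8 at 0.10 and Tap2 at -0.05 on the log2 scale, and H2-Ob at -0.32, while their neighbours H2-Ab1, H2-Aa and H2-Eb1 stood at 0.85, 1.12 and 0.89. In that comparison 0 of the 13 passed over 24 libraries, and without WT_induced replicate 6 the 2 that passed were H2-Aa and H2-Eb1. In induced mice Psmb8 (-1.68, edgeR adjusted p = 0.0382), Psmb9 (-1.71, adjusted p = 0.0435), Tap1 (-1.60, adjusted p = 0.0490) and the antisense gene Gm20496 (-1.61, adjusted p = 0.0188) fell in R47H. Without that library none of these 4 passed, at -0.65, -0.77, -0.67 and -0.85. Gm20496 and Psmb8 overlap, as do Psmb9 and Tap1, and their reads cannot be told apart without strand.

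The calls among genes that control or surround class II presentation are given beside the share of all tested genes. That share was 5.74% in control mice and 5.8% in induced mice over 24 libraries. Without WT_induced replicate 6 it was 6.36% and 4.86%. Of 10 promoter factors, Kat2b, an acetyltransferase that can coactivate Ciita, fell in R47H in both treatments: it averaged 24.4 ± 0.714 CPM in R47H_control and 44.1 ± 5.57 CPM in WT_control (SD, n = 6 each), a log2 difference of -0.86 (SE 0.10, edgeR adjusted p = 1.73e-05). In tamoxifen-treated mice it averaged 24.9 ± 1.27 CPM in R47H_induced and 42.9 ± 8.22 CPM in WT_induced (SD, n = 6 each), a log2 difference of -0.79 (SE 0.10, adjusted p = 2.25e-05). The RFX subunits Rfx5, Rfxap and Rfxank stood at 0.09, 0.09 and 0.16 in control mice, the NF-Y subunits Nfya, Nfyb and Nfyc at 0.19, -0.05 and 0.05, and Creb1, Crebbp and Ep300 at 0.07, -0.02 and -0.02. Without WT_induced replicate 6 Rfxank passed in control mice (0.16, adjusted p = 0.0495) and Nfya in induced mice (0.23, adjusted p = 0.0369). Of 4 genes of class II turnover, Cd83, which holds back the ubiquitin ligase March1, rose in R47H_control (0.30, adjusted p = 0.0207). Of the 9 endosomal genes, 0 passed in control mice and Ifi30 fell in R47H_induced (-0.88, adjusted p = 0.0413; -0.45 and not passing without replicate 6). Of 8 tested genes of the interferon gamma axis 0 passed in any comparison, and of 5 tested co-stimulatory genes 0 passed over 24 libraries, while Icosl rose in R47H_control without replicate 6 (0.39, adjusted p = 0.0264). The T cell and myeloid gene Cd4 fell in R47H in both treatments, at -0.29 in control mice (adjusted p = 0.0204) and -0.35 in induced mice (adjusted p = 0.00529).

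The most abundant genes of these lists were compared between lines, and none of those named next passed over 24 libraries. In control mice the log2 difference was 0.02 for Cst3, the protease inhibitor cystatin C, -0.08 for Ctsb and 0.04 for Ctsd, both lysosomal proteases. Jak1, Jak2 and Ifngr2, which relay interferon gamma, stood at -0.06, 0.12 and 0.05. March8 and March1, ubiquitin ligases that remove class II from the surface, stood at 0.07 and 0.09, and Sppl2a, which cleaves the invariant chain remnant, at -0.01. The co-stimulatory genes Icosl, Cd274 and Cd86 stood at 0.39, 0.16 and 0.20 in control mice, and at 0.05, -1.08 and -0.25 in induced mice (0.24, -0.45 and 0.23 without WT_induced replicate 6). The median of the co-stimulatory list in induced mice was -0.76, and -0.33 without that library. By list, 6 of 10 promoter factors (median 0.06), 6 of 9 endosomal genes (median 0.03), 4 of 8 interferon gamma genes (median 0.02), 3 of 5 co-stimulatory genes (median 0.16) and 2 of 5 class I neighbours (median -0.05) were positive in control mice, where 49.54% of all tested genes were.

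After tamoxifen in WT mice, the class I neighbours and the interferon genes had mostly positive values, and none passed. The 5 class I neighbours were all positive, with a median log2 difference of 1.38, and of 0.45 without WT_induced replicate 6. Positive values were found for 5 of 5 co-stimulatory genes (median 0.55), 7 of 8 interferon gamma genes (median 0.16), 8 of 9 endosomal genes (median 0.07) and 6 of 10 promoter factors (median 0.02), where 50.86% of all tested genes were positive. Without that library, 3 of 5 co-stimulatory, 5 of 8 interferon gamma and 3 of 9 endosomal genes and 8 of 10 promoter factors were positive. WT_induced replicate 1 was the second highest library for Psmb8 (3.62 CPM) and Cd274 (5.44 CPM).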

How the data were processed

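Cortex RNA of 24 mice was sequenced, 1 library per mouse; per the labels' protocols it was extracted with Trizol and RNeasy columns with DNase, selected for poly-A and prepared with the TruSeq RNA v2 kit, which does not mark strand. The deposited values are read counts per gene, whole numbers with no normalization. The tools listed are featureCounts 1.5.1 and STAR 2.5.2b, and the build is mm10, per the submitters' processing notes. The sources used here do not give the options, strand setting or annotation of the counting. Every count column matched 1 sample, and 27 gene names that had turned into dates were resolved by gene ID. Groups were taken from genotype and treatment labels.

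Counts were filtered with filterByExpr, scaled by TMM and fitted with edgeR 4.0.16 (quasi-likelihood F-test, R 4.3.3) in a single fit over 24 libraries, giving 5 comparisons. Adjusted p-values are Benjamini-Hochberg over all tested genes, and called means below 0.05. Because WT_induced replicate 6 stood apart, each comparison was repeated without it over 19811 genes. CPM uses TMM-scaled totals, correlations and permutation tests use log2 CPM with a prior count of 0.5, and permutation p-values are two-sided. The p-values measure the spread between mice. Replicate numbers were given in accession order and do not pair mice. Overlaps of exons come from GENCODE vM21.

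Alternatives were other scalings and filters, DESeq2 1.42.0, limma-voom (limma 3.58.1) without and with sample weights, separate fits to the 12 libraries of a comparison, the rRNA-like share as a covariate, leaving out each library and a threshold of 0.1. Fits over 23 libraries with the rRNA-like, meningeal or choroid plexus covariate were added after seeing the data. The members and the gene lists were chosen with earlier results of these data known. Named are all members, relatives and promoter factors; the 3 most abundant and every called gene of the other lists; the 8 genes most like the members; and called genes between H2-DMa and H2-Eb1. Other genes were named after their values were seen. The fit was tested on simulated data.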

Additional observations from a re-analysis of the deposited data

Results flagged for a closer look

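For each of the 7 genes in each of the 4 groups, the highest and the lowest of the 6 libraries were compared with the nearest other library. Of the 56 ends of these 28 sets, 8 lay farther away than Dixon's criterion for an outlying value allows. Chance alone does this in about 1 in 20 sets. The genes share libraries, so that rate does not apply to the count of 8. WT_induced replicate 6 accounted for 7 of the 8 ends. It was the highest of its group for Cd74 (151.5 CPM, next 9.90), H2-Aa (60.6 CPM, next 3.89), H2-Eb1 (56.2 CPM, next 3.50) and H2-Ab1 (45.3 CPM, next 2.58). The same library was the highest for H2-DMa (13.2 CPM, next 8.24), Ciita (7.61 CPM, next 2.49) and H2-DMb1 (4.54 CPM, next 0.984). The remaining value was Ciita in WT_control replicate 5, the lowest of its group at 1.18 CPM, where the next lowest library had 2.02 CPM. Markers of T cells and monocytes were also highest in WT_induced replicate 6, as given above, and their part in these values was not tested.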

How the results depend on the processing

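No paired analysis was possible because the replicate numbers were given in accession order and do not pair mice. The single class II call over 24 libraries was Cd74, lower in R47H_induced than in WT_induced mice. At a threshold of 0.1, 4 members were called there, with 1853 genes, and 1953 genes in control mice. It was 0 members under library totals, no filter, limma-voom with and without weights, the fit on 12 libraries, the rRNA-like covariate and all fits over 23 libraries; DESeq2 gave H2-Aa, H2-Ab1, H2-Eb1 and Cd74 no adjusted p in any comparison, so its counts of members are not lost calls. Leaving out each library in turn gave 0 to 4 members; besides WT_induced replicate 6, 16 of the other 23 single removals lost Cd74 (edgeR adjusted p of 0.0502 to 0.0834), and removing WT_induced replicate 1, 2, 3 or 5 gave 2 to 4 members. In control mice the count of members ran from 0 to 2, with 2 where WT_induced replicate 6 was left out, and was 4 in the fit on 12 libraries; over 23 libraries it was 1 with the meningeal and 2 with the choroid plexus covariate. It was 0 in the other comparisons. Over the single removals, called genes ran from 823 to 1260 in control mice and from 875 to 1156 in induced mice. They ran from 0 to 2 for induction in R47H, and from 0 to 1 for induction in WT and for the difference of inductions. DESeq2 called 10, 4 and 3 genes in these last comparisons (WT, R47H, difference), and the 12-library fit called 1 for induction in R47H. Between lines, DESeq2 called 1471 genes in control mice and 1507 in induced mice. In control mice the rRNA-like covariate left 451 genes (361 over 23 libraries) and the meningeal covariate 672, with 2 for induction in R47H. Under library totals 191 of 1333 calls in control mice and 507 of 795 in induced mice were higher in R47H, against 530 of 1129 and 509 of 1142 under TMM.

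Some log2 values turned sign, and the cause was not tested. With the rRNA-like covariate over 24 libraries these were, for induction in R47H, H2-Aa (0.52), H2-Ab1 (0.62), H2-Eb1 (0.43) and Cd74 (0.45); for the difference of inductions, H2-DMa (0.019) and Ciita (0.28); and in control mice H2-Aa (-0.28), H2-Ab1 (-0.61), H2-Eb1 (-0.46), H2-DMb1 (-0.47) and Cd74 (-0.50). Without WT_induced replicate 6, Ciita for induction in WT was -0.084, and -0.13, -0.079 and -0.087 with the rRNA-like, meningeal and choroid plexus covariates added. In the same 4 fits the difference of inductions was 0.031, 0.018, 0.029 and 0.022 for H2-DMa and 0.15, 0.28, 0.16 and 0.15 for Ciita. H2-Eb1 in induced mice was 0.072 without that library, 0.077 with the rRNA-like and 0.060 with the choroid plexus covariate added, and H2-DMb1 was 6e-04 with the last. For induction in R47H, H2-DMb1 was -0.0018 without R47H_induced replicate 2 and -0.025 without R47H_control replicate 4, and Ciita was -0.054 without R47H_induced replicate 4 and -0.0066 without R47H_control replicate 4. Over all single removals, these values ran from -0.084 to 0.64 for Ciita in the WT induction, from -0.025 to 0.096 for H2-DMb1 and from -0.054 to 0.13 for Ciita in the R47H induction, from -0.21 to 0.031 for H2-DMa and from -0.57 to 0.15 for Ciita in the difference of inductions, and from -2.74 to 0.072 for H2-Eb1 in induced mice. H2-DMb1 rested on the fewest counts, which limits the precision of its values.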
